A study of Mus musculus with 2 samples.

Results

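The genes described here encode the proteins of the mitochondrial respiratory chain and ATP synthase. Gene symbols beginning with Ndufa, Ndufb, Ndufc, Ndufs, Ndufv, Sdha to Sdhd, Uqcr, Cox4 to Cox8 or Atp5 formed a nuclear-encoded group, and symbols beginning with mt- formed a mitochondrially encoded group. The nuclear pattern matched 94 of 32285 genes, of which 92 had at least 20 unique molecular identifiers (UMIs, 1 per captured transcript molecule) over both libraries, and Cox7b2 and Cox8c did not. All 13 mitochondrially encoded genes passed, so 105 genes were described. By role, the 92 nuclear members were 37 subunits of complex I, 8 complex I assembly factors, 4 subunits of complex II, 8 of complex III, 18 of complex IV (with Ndufa4 and Ndufa4l2 counted there) and 17 of ATP synthase, complex V.

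Complexes I to IV pass electrons from NADH and succinate to oxygen and pump protons across the inner mitochondrial membrane, and ATP synthase uses the resulting gradient to make ATP. Most subunits are encoded in the nucleus and imported, while mitochondrial DNA encodes a few core subunits of complexes I, III, IV and V and none of complex II. Colonocytes are known to oxidise short-chain fatty acids in mitochondria, and oxidative metabolism is known to increase as crypt cells differentiate, whereas mature neutrophils hold few mitochondria and rely largely on glycolysis.

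The samples were colon tumours of mice given azoxymethane and dextran sulfate sodium (AOM/DSS, a carcinogen and an agent that inflames the colon), dissociated to single cells and profiled with droplet 3′ chemistry. One library came from Gsk3b IEC+/+ mice (called WT below) and one from Gsk3b IEC-/- mice (KO), in which the kinase gene Gsk3b is deleted in intestinal epithelial cells. Both genotypes received the same tumour protocol, and the number of animals per library, their age and the driver of the deletion are not given in the sources used here. With 1 library per genotype there is no replicate, so no test was made between genotypes, every interval covers counting error only, and animal, library and genotype cannot be told apart.

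After filtering, 9899 WT and 10569 KO cells remained, with medians of 5165 and 3379 UMIs per cell. Gsk3b in epithelial cells was at 262 CPM (a gene's UMIs scaled to the total UMIs of a class of cells) in WT and 242 in KO; the deleted part of the gene is not given, so a 3′ tag does not check the label. The 2 libraries shared 34 cell barcodes. An estimated 10.2% of UMIs in WT and 12.1% in KO came from free RNA, the RNA outside cells that is captured with every cell, and this was 8.70% mitochondrially encoded in WT and 10.0% in KO. Levels below are CPM or shares of all UMIs, and since 3′ UMIs count transcripts once whatever their length they were not divided by length.

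The promoters of the nuclear members were searched for 3 motifs of factors known to control respiratory chain genes. RefSeq promoters of 300 bases were found by symbol for 74 of the 92 members. The NRF1 core GCGCATGC, on either strand, occurred in 12 of these 74 (16.2%) and in 3.05% of the 27025 genes with a promoter in the table. The YY1 core GCCATCTT occurred in 10 members (13.5%, against 3.19% of all genes), and the ETS motif CCGGAAGT in 5 (6.76%, against 4.31%). At least 1 of the 3 was present in 26 members (35.1%, against 9.91% of all genes). These are matches of letters within a window of fixed size and not measured binding. The set of all genes was not matched to the members for base content or expression. Whether members with a motif differ from those without in their levels between cell states was not tested. Stretches upstream of the start of 4 genes with different roles show the NRF1 core in capitals, written 5′ to 3′ on the gene's own strand (RefSeq, GRCm38.p6). The first is from Ndufaf4, a complex I assembly factor (chr4:24897944-24898003, plus strand), the second from Ndufa6, a complex I subunit (chr15:82354341-82354400, minus strand), the next from Cox6a1, a complex IV subunit (chr5:115349087-115349146, minus strand), and the last from Atp5l, a subunit of ATP synthase (chr9:44920949-44920992, minus strand).
Ndufaf4: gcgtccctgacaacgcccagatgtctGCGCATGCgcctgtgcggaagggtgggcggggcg
Ndufa6: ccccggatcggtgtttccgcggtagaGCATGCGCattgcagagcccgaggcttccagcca
Cox6a1: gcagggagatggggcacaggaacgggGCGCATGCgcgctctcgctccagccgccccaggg
Atp5l: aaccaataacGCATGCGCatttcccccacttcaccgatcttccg

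Among the named cell classes, respiratory chain transcripts took the largest share of UMIs in epithelial cells and the smallest in neutrophils, in both libraries and for both groups of genes. In epithelial cells the nuclear members made up 2.48% of UMIs in WT (4494 cells) and 2.60% in KO (4294 cells), and the mitochondrially encoded genes 4.67% and 5.23%. In neutrophils the nuclear members made up 0.731% in WT (2688 cells) and 0.804% in KO (3711 cells), and the mitochondrially encoded genes 1.47% and 1.85%. The exact Poisson intervals of these shares were narrow, for example 2.476% to 2.483% for the nuclear group in WT epithelium.

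The other classes lay between these ends. T cells were at 1.71% nuclear and 2.64% mitochondrially encoded in WT and at 1.64% and 2.82% in KO, and monocytes or macrophages at 1.56% and 2.62% in WT and 1.66% and 2.78% in KO. The 2 groups did not rank the classes alike. B cells had less nuclear-group RNA than T cells or macrophages (1.23% in WT and 1.18% in KO) but more mitochondrially encoded RNA (3.30% and 3.91%), so that they held 0.372 nuclear UMIs for each mitochondrially encoded UMI in WT and 0.3003 in KO, against 0.646 and 0.581 in T cells. Dendritic cells were at the other end, with 0.752 in WT and 0.693 in KO. Subtracting the estimated free RNA lowered the neutrophil shares to 0.516% and 0.546% for the nuclear group and to 0.651% and 0.729% for the mitochondrially encoded genes, and neutrophils then remained lowest of the 5 classes with at least 100 cells in each library.

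**Figure D1:**
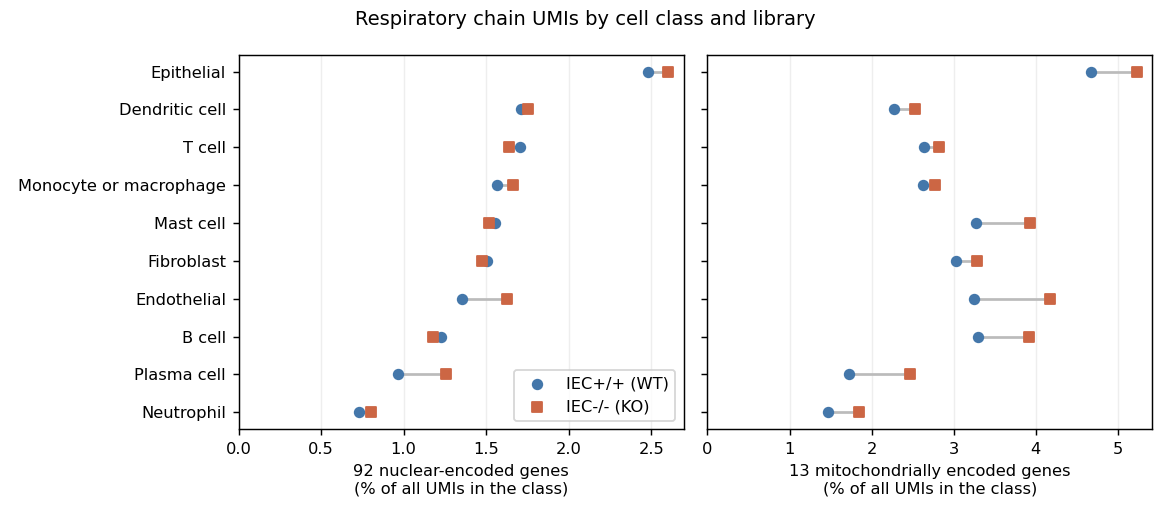
Share of all UMIs of each cell class (x axes, percent) taken by the nuclear-encoded and the mitochondrially encoded genes, with 1 circle for the WT and 1 square for the KO library. Epithelial cells are highest in both panels and neutrophils lowest in the nuclear panel, with 0.731% in WT and 0.804% in KO.

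Member by member the same order held for most of the group. Of 90 nuclear members with enough UMIs over the 5 classes, 78 were highest in epithelial cells in WT and 80 in KO, and 82 and 81 were lowest in neutrophils. The span between classes differed among members, in levels from which free RNA was not subtracted. Atp5g3, which encodes the c subunit of the ATP synthase rotor, was at 319 CPM in WT epithelium and 46.1 in WT neutrophils, and at 368 and 62.8 in KO, a span of at least 5.86-fold in each library. Uqcrc2, a core subunit of complex III, was at 182 against 28.5 CPM in WT and 188 against 31.7 in KO. The accessory complex I subunit Ndufa10 was at 123 against 17.7 CPM in WT and 147 against 24.8 in KO.

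Ndufaf1, Cox7a1 and Ndufaf4 had the widest spans from the highest to the lowest of the 5 classes, with counts under 3 UMIs set to 3. Free RNA, estimated at 10.2% of UMIs in WT and 12.1% in KO, was not subtracted from these levels. Its part in the low neutrophil values, and so in the spans, was not tested. Ndufaf4, needed for complex I assembly, was at 52.1 CPM in WT epithelium and 5.04 in WT neutrophils, and at 51.6 and 7.15 in KO. Ndufaf1, another complex I assembly factor, was at 12.9 and 1.48 CPM in WT and at 13.1 and 1.26 in KO, where the neutrophil values rest on 10 and 9 UMIs, and its highest WT level was in B cells (15.9 CPM on 6 UMIs). Cox7a1, the isoform of complex IV subunit 7a known from heart and skeletal muscle, was at 8.54 and 0.890 CPM in WT and at 12.1 and 2.66 in KO, where its lowest level was in T cells (1.59 CPM on 5 UMIs). At the narrow end, Atp5l, subunit g of ATP synthase, was at 536 CPM in WT epithelium, 350 in WT neutrophils and 318 in WT B cells, and at 505, 346 and 286 in KO. In WT, 3 members were higher in neutrophils than in epithelium: Ndufaf7 (32.2 against 21.3 CPM) and, on 11 and 3 neutrophil UMIs, the rare isoforms Cox4i2 and Cox6a2.

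Within the epithelium, the most abundant nuclear members of each complex had these levels. For complex I these were Ndufb9 (459 CPM in WT, 542 in KO) and Ndufa6 (341 and 345), for complex III Uqcrh (597 and 641) and Uqcr10 (530 and 614). For complex IV, Cox4i1, whose protein is the largest nuclear-encoded subunit of the enzyme, was at 1180 CPM in WT and 1379 in KO. For complex V, the catalytic beta subunit Atp5b was at 819 and 894 CPM and Atp5d at 643 and 664. Complex II was low throughout, with its flavoprotein Sdha at 101 and 107 CPM, its iron-sulfur protein Sdhb at 127 and 129, and the membrane anchors Sdhc at 93.2 and 99.5 and Sdhd at 48.8 and 66.1. The assembly factors Ndufaf4 (52.1 and 51.6) and Ndufaf8 (51.8 and 49.2) were also low.

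The 13 mitochondrially encoded genes spanned a wide range of levels. In WT epithelium, mt-Atp6, the proton channel subunit of ATP synthase, was highest at 11724 CPM, followed by the catalytic core of complex IV, with mt-Co1 at 9152, mt-Co3 at 8424 and mt-Co2 at 6770. mt-Cytb of complex III was at 4556 CPM. Among complex I subunits mt-Nd4 was at 2598 and mt-Nd1 at 2063, then mt-Nd2 at 757, mt-Nd5 at 281, mt-Nd3 at 226 and mt-Nd4l at 79.1. The lowest were mt-Atp8 at 14.8 and mt-Nd6 at 11.4 CPM. As background, mt-Atp8 and mt-Nd4l are each transcribed on 1 messenger with the gene that follows (mt-Atp6 and mt-Nd4), so a 3′ tag falls mostly in that gene, and mt-Nd6 is the only protein gene of the light strand.

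Across epithelial states, respiratory chain RNA was higher in absorptive cells than in stem- or progenitor-like cells in each library. The nuclear group made up 2.35% of UMIs in WT stem- or progenitor-like cells and 2.92% in WT absorptive cells, and 2.31% and 3.09% in KO. The mitochondrially encoded genes made up 4.16% and 5.84% in WT and 4.68% and 6.16% in KO. The number of nuclear UMIs per mitochondrially encoded UMI was 0.564 in WT stem- or progenitor-like and 0.4997 in WT absorptive cells, and 0.493 and 0.502 in KO. The states were built without any respiratory chain gene among the clustering genes, so the difference was not used to define them. Different subclusters make up each state in the 2 libraries. Most WT absorptive cells came from the subclusters led by Saa1 (361 of 838) and Krt36 (354), and most KO ones from those led by Muc3 (477 of 1117) and Krt36 (382). Stem- or progenitor-like cells came mostly from the subclusters led by Mdga2 (690 of 2130) and Fut9 (653) in WT and from that led by Clstn2 (902 of 2244) in KO.

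The median nuclear member was higher in absorptive cells by 0.31 on the log2 scale in WT and 0.42 in KO, while the median of all genes was lower by 0.38 and 0.32. Over other settings the nuclear median ranged from 0.14 to 0.40 in WT, the lowest value coming from every barcode with 1000 UMIs or more, and from 0.30 to 0.49 in KO. In WT, 76 of 90 measured nuclear members were above 0, and in KO 79 of 91. Counting only differences beyond 1.5-fold, 7 nuclear and 3 mitochondrially encoded members were higher in WT, where 11.6% of all genes were, and 2 nuclear members were lower, where 38.6% of all genes were. In KO, 21 nuclear members were higher, beside 13.1% of all genes, and 3 were lower, beside 35.6%. The share of nuclear members lower by that amount was thus far under the share of all genes in each library. The mitochondrially encoded genes were all above 0 in both libraries, with medians of 0.52 in WT and 0.40 in KO, and ranges over other settings of 0.35 to 0.83 and 0.18 to 0.64.

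The shift ran through complexes II to V and was smaller in complex I. Medians in WT were 0.41 for complex II, 0.33 for complex III, 0.49 for complex IV and 0.38 for complex V, and in KO 0.52, 0.51, 0.55 and 0.49. Complex I subunits had medians of 0.22 in WT and 0.31 in KO. The 8 complex I assembly factors went the other way, with medians of -0.22 in WT and -0.12 in KO. Of these, Ndufaf8 was the exception in both libraries, at 47.3 CPM in WT stem- or progenitor-like cells and 69.8 in WT absorptive cells, and at 40.3 and 66.4 in KO.

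Of the single subunits given here, Cox5a, Atp5d and Ndufv3 were beyond 1.5-fold in both libraries and so lay above the typical member. Cox5a, a nuclear subunit of complex IV, was at 830 CPM in WT stem- or progenitor-like and 1347 in WT absorptive cells, and at 775 and 1322 in KO. Atp5d was at 577 and 889 CPM in WT and at 544 and 880.4 in KO. Ndufv3, an accessory subunit of the NADH-oxidising module of complex I, was at 109 and 189 CPM in WT and at 111 and 213 in KO, log2 differences of 0.80 (interval 0.74 to 0.86) and 0.94 (0.89 to 0.99). Sdha was at 95.03 and 126 in WT and at 92.9 and 138 in KO. All 4 genes were higher in absorptive cells of both libraries by more than their counting error. Ndufv3 was named for its state difference and Cox5a after its values were seen, so their separated intervals follow from that choice.

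**Figure D2:**
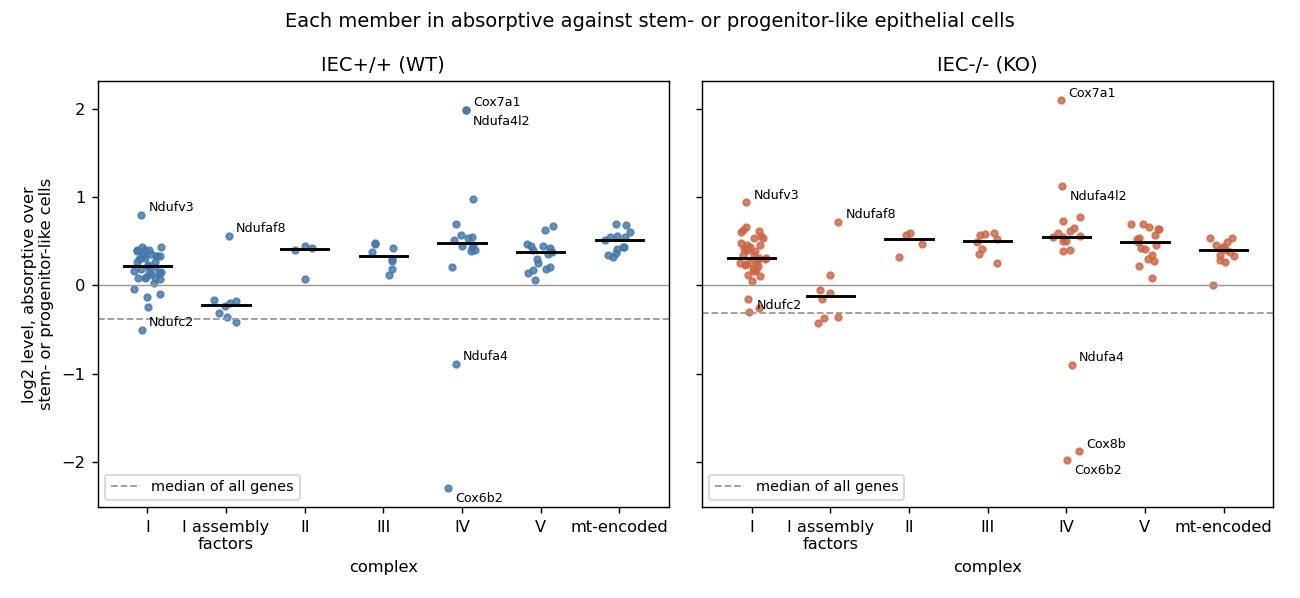
Log2 ratio of the level in absorptive over stem- or progenitor-like epithelial cells for each member with at least 20 UMIs (points), by complex, in the WT (left) and KO (right) library. Black bars are medians and the dashed line is the median of all genes, which is -0.38 in WT and -0.32 in KO. Most points of complexes II to V lie above 0, while most assembly factors of complex I (not Ndufaf8), Ndufa4 and Cox6b2 lie below.

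Within complex IV, isoforms and an exchangeable subunit lay outside the range of the other subunits, on the same side in both libraries. Ndufa4 (chr6:11900292-11907497, minus strand), first assigned to complex I and now known as a subunit of complex IV, was at 842 CPM in WT stem- or progenitor-like cells and 455 in WT absorptive cells. In KO it was at 884 and 474 CPM. The log2 differences were -0.89 (interval -0.92 to -0.86) in WT and -0.90 (-0.93 to -0.87) in KO, opposite in sign to Cox5a, Cox4i1 and Cox8a in the same cells. Ndufa4l2, a paralog of Ndufa4 known to be induced by hypoxia, was rare, at 0.591 CPM in stem- or progenitor-like and 2.33 in absorptive cells in WT and at 1.05 and 2.28 in KO, on 32 to 67 UMIs per state. Of its 48 UMIs in WT absorptive cells 43 came from the Krt36 subcluster, the Saa1 and Muc3 subclusters were at 0.737 and 0.393 CPM in WT, and the stem- or progenitor-like subcluster led by Ly6g6c was at 3.39 in WT and 3.87 in KO.

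Cox7a1 (chr7:30184144-30186078, plus strand) was at 4.67 CPM in WT stem- or progenitor-like and 18.5 in WT absorptive cells, and at 4.6 and 19.7 in KO. The log2 differences were 1.99 (interval 1.75 to 2.22) in WT and 2.10 (1.88 to 2.32) in KO. Its ubiquitous counterpart Cox7a2 was much more abundant, at 453 and 645 CPM in WT and at 392 and 615 in KO. Cox6b2, the isoform of subunit 6b known from testis, went the other way, at 5.48 and 1.12 CPM in WT and at 7.11 and 1.81 in KO, on 23 and 53 absorptive UMIs, whereas Cox6b1 was at 477 and 691 in WT and at 413 and 604 in KO. In KO a further member was lower by over 1.5-fold, Cox8b, with 33 UMIs in stem- or progenitor-like and 5 in absorptive cells. Each rare isoform thus stayed far below its ubiquitous partner in both states.

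The 3 absorptive subclusters, named here by their leading genes, differed in Ndufa4. Ndufa4 was at 554 CPM in WT and 565 in KO in the Krt36 subcluster, at 348 and 440 in the Muc3 subcluster, and at 276 and 252 in the Saa1 subcluster. Cox5a in the same 3 subclusters was at 1290.5 and 1226, 1275 and 1362, and 1512 and 1545 CPM. The Saa1 subcluster thus had the lowest Ndufa4 and the highest Cox5a of the 3 in both libraries. Ndufa4 was at 1062 and 966 CPM in the stem- or progenitor-like subcluster led by Clstn2 and at 988 and 998 in the cycling subcluster led by Top2a. The 2 genes were not opposed everywhere: the unnamed subcluster led by Mt4 had high levels of both, with 1497 and 1341 CPM of Ndufa4 and 1644 and 1471 of Cox5a.

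A further gene outside the symbol pattern was looked up after these values were seen. Unlike the members, it was not kept out of the clustering genes, so it may have helped to define the states and subclusters. AA467197, the mouse gene of NMES1, a paralog known to take the place of Ndufa4 in complex IV, was at 51.3 CPM in WT stem- or progenitor-like cells and 694 in WT absorptive cells, and at 30.4 and 409 in KO. In the Saa1 subcluster, where Ndufa4 was at 276 and 252 CPM, AA467197 was at 1578 in WT and 1198 in KO, and in the Clstn2 subcluster at 23.3 and 19.2. Among immune classes it was at 665 CPM in WT and 857 in KO monocytes or macrophages, where Ndufa4 was at 232 and 209, and at 97.7 and 72.5 in T cells, where Ndufa4 was at 359 and 337.

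**Figure D3:**
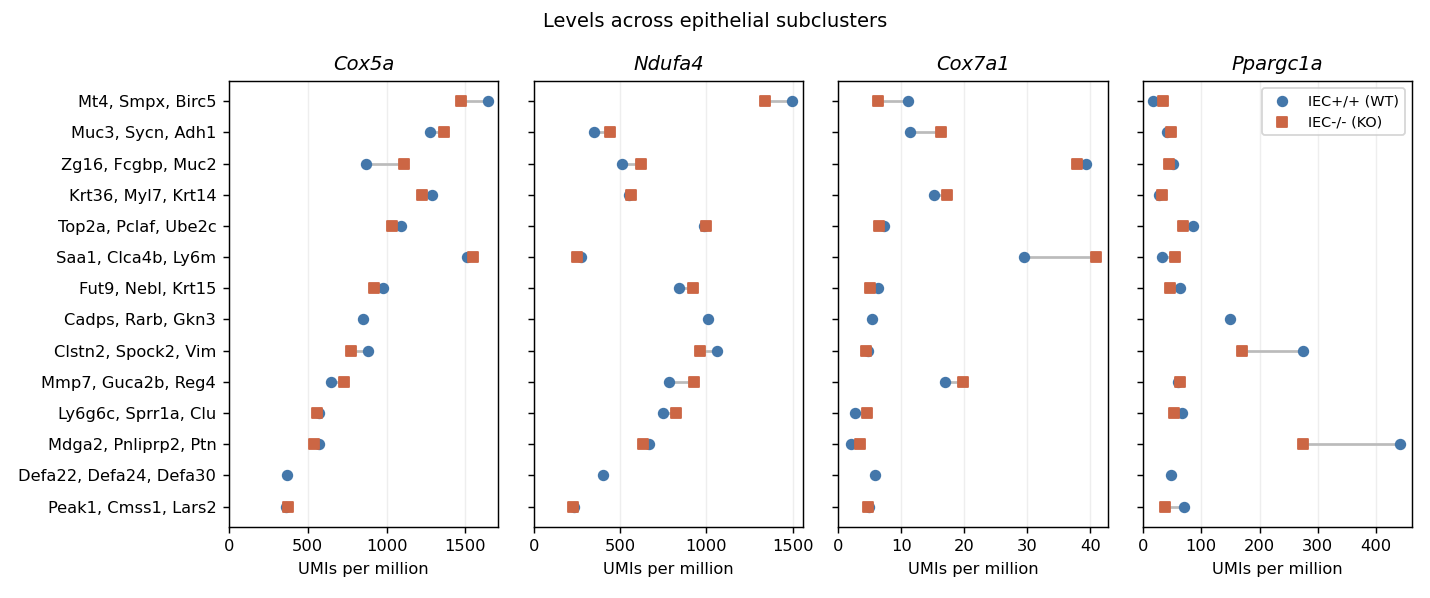
Levels (CPM, linear axes from 0) of Cox5a, Ndufa4, Cox7a1 and Ppargc1a in epithelial subclusters with at least 50 cells in a library, with circles for WT and squares for KO. Subclusters are ordered by their nuclear-group share. Ndufa4 is low in the absorptive subclusters led by Saa1, Muc3 and Krt36, where Cox5a is high.

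The subclusters gave a wider range than the 2 states. Among stem- or progenitor-like subclusters the nuclear share was lowest in those led by Mdga2, Pnliprp2 and Ptn (1.85% in WT, 1.83% in KO) and by Ly6g6c, Sprr1a and Clu (1.83% and 1.87%). It was intermediate in those led by Clstn2 (2.45% and 2.35%) and Fut9 (2.62% and 2.54%), and higher in cycling cells led by Top2a (2.86% and 2.80%). The absorptive subclusters were at 2.68% and 2.87% (Saa1), 2.94% and 2.85% (Krt36) and 3.29% and 3.40% (Muc3). These are shares of summed UMIs, in which cells with many UMIs weigh most. The median Saa1 cell held 1.69% in WT and 1.84% in KO. That was below the median Clstn2 (2.38% and 2.24%), Fut9 (2.54% and 2.47%) and Top2a cell (2.82% and 2.70%) and near the median Mdga2 cell (1.80% and 1.78%). Goblet cells, led by Zg16, had the widest gap between the libraries, with 2.77% in WT and 3.21% in KO.

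A pair of subclusters of few UMIs stood apart. Cells led by Peak1, Cmss1 and Lars2 (median 1529 UMIs, 396 WT and 363 KO cells) held 1.14% and 1.19% nuclear-group but 16.8% and 16.4% mitochondrially encoded UMIs. Cells led by Mt4, Smpx and Birc5 (median 2163 UMIs, 138 and 99 cells) held the reverse, 4.32% and 4.13% nuclear-group and 1.78% and 2.03% mitochondrially encoded UMIs. The ratio of nuclear to mitochondrially encoded UMIs was 0.0682 and 0.0727 in the first and 2.42 and 2.03 in the second, against 0.4997 and 0.502 in absorptive cells. The absorptive Saa1 subcluster also combined few UMIs (median 4985) with many mitochondrially encoded ones (7.32% in WT, 8.88% in KO). Without subclusters of few UMIs whose median mitochondrial share exceeded 10%, the absorptive over stem median was 0.43 in WT and 0.33 in KO for the mitochondrially encoded genes and 0.38 in WT for the nuclear group.

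**Figure D4:**
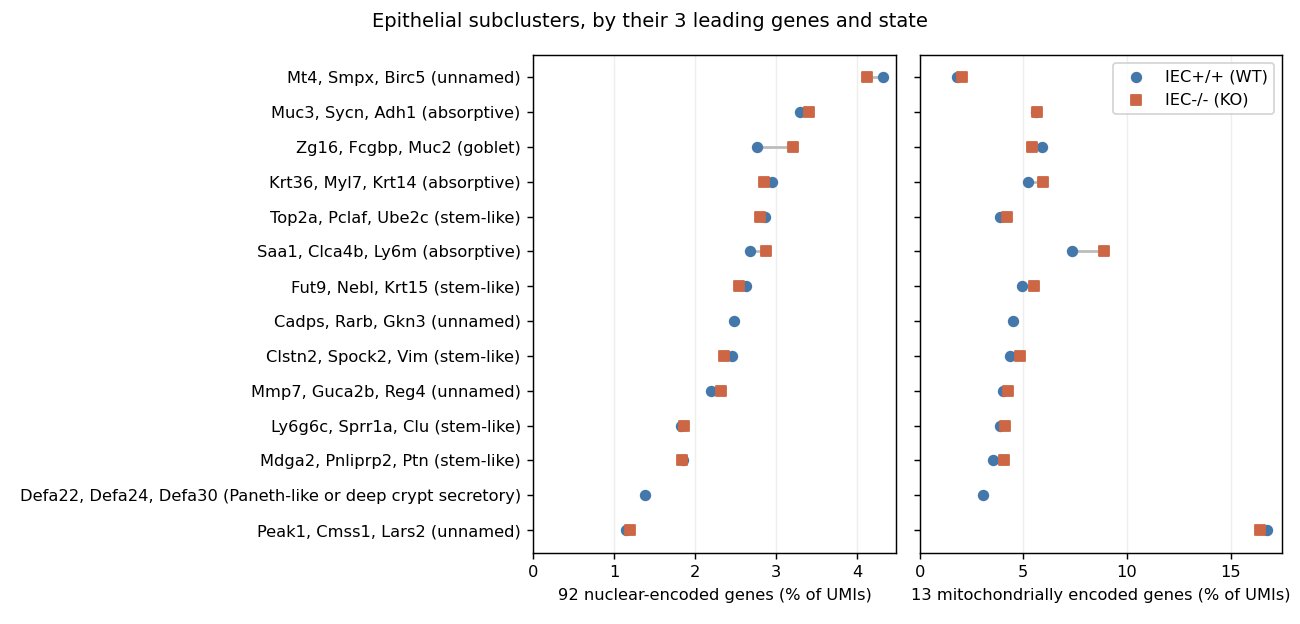
Share of UMIs (percent, axes from 0) taken by the nuclear-encoded (left) and mitochondrially encoded genes (right) in each epithelial subcluster with at least 50 cells in a library, labelled by 3 leading genes and the state name. The nuclear share spans 1.14% to 4.32% in WT, and the Peak1 subcluster is the one with 16.8% mitochondrially encoded UMIs in WT.

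Between the libraries, respiratory chain RNA of epithelial cells differed little. The median nuclear member was 0.06 higher in KO on the log2 scale and the median mitochondrially encoded gene 0.15 higher, where the median of all genes was 0.06 lower. Over other settings these medians ranged from 0.06 to 0.14 and from 0.07 to 0.27. The epithelial sums include the subcluster led by Cadps, which held 650 WT and 10 KO cells. Of 91 measured nuclear members 1 was higher in KO by over 1.5-fold, beside 6.69% of all genes, and no measured member of either group was lower by that amount, beside 11.7% of all genes. In the same cells the listed B cell markers took 0.000460% of UMIs in WT and 0.00111% in KO, and the neutrophil markers 0.0957% and 0.0619%. The part of such RNA in the ratios was not tested. By complex the medians were 0.06 for I, 0.09 for II, 0.12 for III, 0.08 for IV and 0.08 for V, and -0.05 for complex I assembly factors. The member beyond 1.5-fold was Cox8b, the muscle isoform of subunit 8, with 20 UMIs in WT and 70 in KO (0.199 and 0.744 CPM), a low count.

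Among abundant members the largest difference was in Sdhd, the small membrane anchor of complex II. It was at 48.8 CPM in WT (interval 47.4 to 50.2) and 66.1 in KO (64.5 to 67.8), a log2 difference of 0.44. Its log2 difference was 0.28 within stem- or progenitor-like cells, 0.32 within absorptive and 0.62 within goblet cells, and 0.45 in monocytes or macrophages. In the free RNA Sdhd was also higher in KO, by 0.54. The complex III iron-sulfur protein Uqcrfs1 was at 178 CPM in WT and 214 in KO, and Ndufv3 at 129 and 159. Cox7a1 was at 8.54 and 12.1 CPM over all epithelial cells, but at 4.67 and 4.6 within stem- or progenitor-like cells and 18.5 and 19.7 within absorptive cells. Within the absorptive subclusters it was nevertheless higher in KO, at 15.2 and 17.3 CPM in Krt36, 29.5 and 40.8 in Saa1 and 11.4 and 16.3 in Muc3 cells. The counting intervals of the 2 libraries overlapped in Krt36 and Muc3 cells (29 WT UMIs in the latter) and only just in Saa1 cells. Goblet cells, of which KO held more, were at 39.3 and 38.0 CPM.

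The tissue-restricted isoforms were rare in epithelium of both libraries. Cox4i2, the lung isoform of subunit 4, was at 1.16 CPM in WT and 0.818 in KO (log2 -0.51, on 117 and 77 UMIs), Cox6a2 at 0.0896 and 0.0638, Cox6b2 at 4.72 and 4.91 and Ndufa4l2 at 0.926 and 1.35. Their ubiquitous partners were far higher, with Cox6a1 at 221 and 255 CPM, Cox7a2 at 496 and 484, and the supercomplex factor Cox7a2l at 248 and 277.

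Of members at higher levels, those lowest in KO over WT in epithelium differed little. The assembly factor Ndufaf6 was at 15.1 CPM in WT and 12.2 in KO (log2 -0.30), and Ndufb1-ps, an accessory complex I subunit, at 98.4 and 89.2 (-0.14). Cox6b1 was at 532 and 491 CPM (-0.12), the complex I subunit Ndufs4 at 153 and 140 (-0.12) and Atp5h, the stalk subunit d of ATP synthase, at 464 and 431 (-0.11). Atp5h was also lower in KO in neutrophils (-0.13), macrophages (-0.12), T cells (-0.20), B cells (-0.40) and the free RNA (-0.19). The difference in Atp5h thus had the same sign in the 5 classes and in the free RNA, and its source was not tested.

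The mitochondrially encoded genes were not uniform either. In epithelium, mt-Co1 was at 9152 CPM in WT and 10879 in KO (log2 0.25) and mt-Nd5 at 281 and 331 (0.24), whereas mt-Cytb was at 4556 and 4823 (0.08). Of the 13 genes, 11 were higher in KO, and mt-Nd3 (226 and 206 CPM, -0.13) and mt-Nd6 (11.4 and 9.72, -0.23) were lower. In the free RNA the same 2 genes were lower in KO (-0.16 and -0.27) and the others higher, with mt-Co1 at 0.32 and mt-Cytb at 0.06. After subtraction of the estimated free RNA the epithelial median was 0.11.

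Within epithelial states the KO over WT direction depended on the state. The nuclear group had medians of -0.01 in stem- or progenitor-like cells, 0.10 in absorptive cells and 0.20 in goblet cells, where the median of all genes was -0.02, 0.02 and -0.12. The mitochondrially encoded genes had medians of 0.16, 0.06 and -0.12 in the same states. Goblet cells numbered 74 in WT and 259 in KO. In them 12 of the 13 mitochondrially encoded genes were lower in KO, and 77 of 87 measured nuclear members were higher. The upper quartile of the mitochondrially encoded share per goblet cell was 12.2% in WT and 7.46% in KO, and the part of these cells in the difference was not tested.

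**Figure D5:**
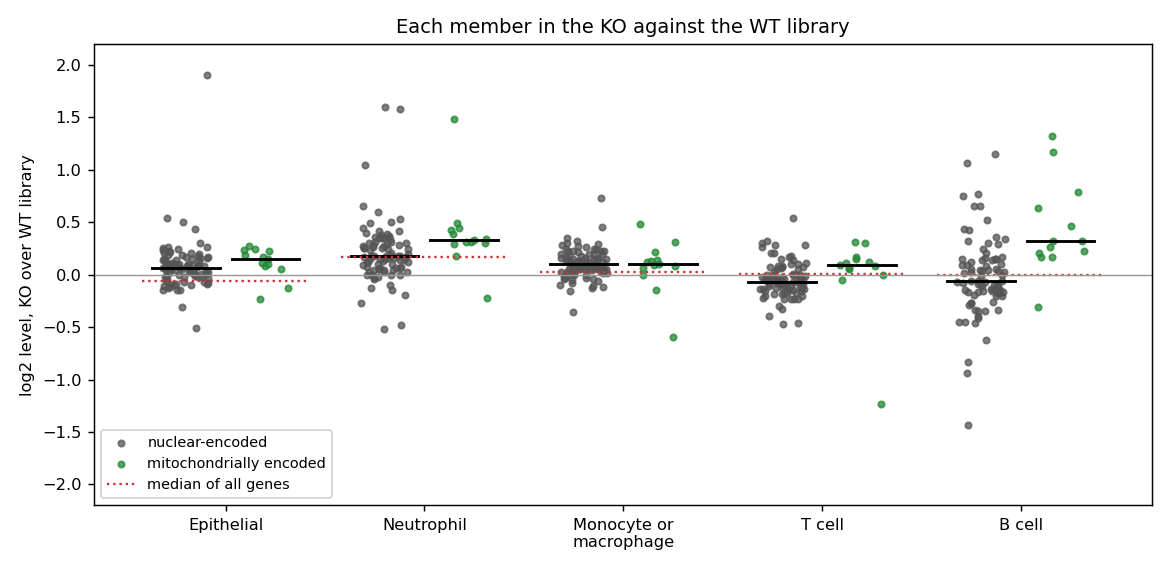
Log2 ratio of the KO over the WT library for each nuclear-encoded (grey) and mitochondrially encoded (green) member with at least 20 UMIs in a class. Black bars are group medians and red dotted lines the median of all genes, which is 0.17 in neutrophils. In B cells 2 members lie beyond the axis and Cox6a2, at 0 UMIs in KO, is not drawn.

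In neutrophils the nuclear group differed between the libraries by about as much as genes in general. The median nuclear member was 0.17 higher, where the median of all genes was also 0.17 higher, and over other settings it ranged from 0.03 (median-of-ratios scaling) to 0.19. Of 87 measured, 5 were higher by over 1.5-fold, beside 18.3% of all genes, and none was lower, beside 5.90% of all genes. The median mitochondrially encoded gene was 0.33 higher, 0.16 above the median of all genes. It was 0.72 with coarser clustering, which named 556 WT and 544 KO cells, and 0.19 with median-of-ratios scaling. Other settings also changed the cells named, with 2100 WT and 1490 KO for every barcode from 1000 UMIs. Without a mitochondrial limit these were 2299 and 1498, and without doublet removal 2223 and 1576. Different clusters make up the class: the one led by G0s2 and Retnlg held 1751 WT and 1182 KO cells and the one led by Nlrp3 and Ccrl2 324 and 1908. Within the G0s2 cluster the nuclear share was 0.703% in WT and 0.820% in KO and the mitochondrially encoded share 1.43% and 1.75%, and within the Nlrp3 cluster 0.710% and 0.779%, and 1.73% and 1.81%. In the cluster led by Gbe1 the nuclear share was lower in KO (0.854% and 0.776%), and in that led by Eldr the mitochondrially encoded share was 1.57% and 2.31%. The listed neutrophil markers took 14.03% of neutrophil UMIs in WT and 8.57% in KO, and the epithelial markers 0.195% and 0.243%. Neutrophils had a median of 2394 UMIs in WT and 1844 in KO, and the part of these gaps in the ratios was not tested.

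The 5 members beyond 1.5-fold were Ndufc1 and 4 of lower level, Ndufaf8 (10.5 CPM in WT, 16.5 in KO), Cox4i2, Cox7a1 and Ndufaf5, the last 3 on 11, 6 and 5 UMIs in WT. Ndufc1 was at 25.96 CPM in WT and 39.2 in KO (log2 0.60, interval 0.32 to 0.88) and Ndufb10 at 36.8 and 53.3 (0.53). In complex V, Atp5g3 was at 46.1 and 62.8 CPM (0.44) and Atp5b at 154 and 195 (0.34), and in complex IV Cox7b was at 59.8 and 79.8 (0.42). On the lower side Ndufaf7, a methyltransferase that acts in complex I assembly, was at 32.2 and 23.1 CPM (-0.48), Ndufb11 at 96.4 and 84.4 (-0.19), Atp5f1 at 134 and 121 (-0.15) and the assembly factor Ndufaf2 at 10.2 and 7.15 (-0.52, interval -1.07 to 0.03).

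In monocytes or macrophages, nuclear and mitochondrially encoded members both had medians 0.10 higher in KO, beside 0.02 for all genes. The mitochondrially encoded median had the other sign after subtraction of free RNA (-0.05), and the nuclear one ranged from 0.04 to 0.12 over other settings. In the cluster led by Mmp12 the nuclear share was 1.58% in WT and 1.745% in KO and the mitochondrially encoded share 2.74% and 2.77%, and in that led by F13a1 1.48% and 1.39%, and 2.34% and 2.72%, so the nuclear direction was not the same in both. Of 89 nuclear members 1, Cox7a1 (21 and 22 UMIs), was higher by over 1.5-fold, beside 6.18% of all genes, and 1 mitochondrially encoded gene, mt-Nd6 (74 and 31 UMIs), was lower, beside 7.33%. Ndufv3 was at 131 CPM in WT and 167 in KO and Ndufb8, an accessory complex I subunit, at 207 and 253. Ndufa4 was at 232 and 209 and Atp5h at 373 and 342. Ndufv3 and Ndufb8 were named because their KO over WT intervals lay farthest above 0, so their separated counting intervals follow from that choice.

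In T cells the nuclear group was lower in KO, with a median of -0.07 beside 0.01 for all genes and 61 of 86 members below 0. None was beyond 1.5-fold in either direction, beside 7.87% of all genes higher and 8.73% lower, and mt-Nd6 was lower, at 9.71 CPM in WT and 4.13 in KO. Ndufb1-ps was at 152 and 111 CPM and Ndufb2 at 62.8 and 45.5, while Ndufa10 was at 68.6 and 99.5 and Atp5a1, the alpha subunit of the ATP synthase head, at 312 and 360. The mitochondrially encoded median was 0.09 higher in KO, and -0.07 after subtraction of free RNA. The nuclear median stayed below 0 over other settings, from -0.15 to -0.03. By cluster, the nuclear share was nearly equal in that led by Ccl5, at 1.70% in WT and 1.69% in KO. It was lower in KO in those led by Tnfrsf4 (1.61% and 1.48%) and Trdc (1.91% and 1.70%).

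B cells gave the least precise values, with 119 WT and 503 KO cells. The nuclear median was -0.06 and the mitochondrially encoded median 0.32, beside 0.00 for all genes. The direction of the nuclear group was not stable: the median was 0.06 without doublet removal and 0.04 without the 7 WT cells described below, and the mitochondrially encoded median was 0.05 with a 10% mitochondrial limit. Of 86 nuclear members 8 were higher by over 1.5-fold, beside 14.0% of all genes, and 5 lower, beside 12.3%. Ndufa1 had 8 UMIs in WT and 71 in KO (21.2 and 47.1 CPM) and Ndufab1, the mitochondrial acyl carrier protein, 21 and 141 (55.6 and 93.4). The assembly factor Ndufaf3 had 21 and 31 UMIs (55.6 and 20.5 CPM) and Atp5md 48 and 100 (127 and 66.3).

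Cox6a2, the muscle isoform of subunit 6a, had 45 UMIs in WT B cells and 0 in KO B cells. All 45 came from 7 cells that also held UMIs of Siglech, a marker of plasmacytoid dendritic cells, and these 7 cells together held 49572 of the 377635 UMIs of WT B cells but 5 of the 693 UMIs of the B cell marker Cd79a. The other 112 WT B cells had no Cox6a2 UMI. The Cox6a2 difference thus sat entirely in cells that were clustered with B cells and carried another class's marker.

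Other mitochondrial gene lists had smaller medians than most subunit groups between epithelial states, in both directions. Genes for mitochondrial DNA maintenance and transcription had absorptive over stem medians of -0.32 in WT and -0.21 in KO over 21 genes, and the 78 mitochondrial ribosomal protein genes of 0.00 and 0.07. The 36 further assembly factors had medians of -0.05 and 0.00. Citric acid cycle and pyruvate entry genes were at 0.02 in WT and 0.27 in KO over 21 genes, and electron carriers, coenzyme Q synthesis and nucleotide exchange at 0.15 and 0.24. All lay above the median of all genes (-0.38 and -0.32), and only the subunit groups of complexes I to V and the mitochondrially encoded genes had medians above 0.20 in both libraries.

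Between the libraries these lists also stayed near 0 in epithelium. Medians of KO over WT were -0.03 for mitochondrial DNA genes, -0.04 for mitochondrial ribosomal proteins, -0.03 for assembly factors, -0.04 for carriers and 0.09 for the citric acid cycle. The single gene of these lists beyond 1.5-fold, beside 6.69% of all genes higher and 11.7% lower, was Pdk4, a kinase that inhibits pyruvate dehydrogenase, at 6.92 CPM in WT and 4.54 in KO. Of the 12 listed regulators, 1 was lower beyond 1.5-fold, Ppargc1a, where 11.7% of all genes were lower by that amount.

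Ppargc1a, the coactivator PGC-1alpha known to drive mitochondrial gene programs, was at 160 CPM in WT epithelium (16060 UMIs) and 99.9 in KO (9405 UMIs), a log2 difference of -0.68 (interval -0.71 to -0.64). In neutrophils Ppargc1a was at 15.4 CPM in WT and 8.97 in KO (log2 -0.78, on 104 and 64 UMIs). Free RNA, estimated at 10.2% of UMIs in WT and 12.1% in KO, was not subtracted. Its part in these low neutrophil values was not tested. Within epithelium Ppargc1a was concentrated in stem- or progenitor-like cells led by Mdga2, Pnliprp2 and Ptn, at 441 CPM in WT and 276 in KO, and in those led by Clstn2, at 275 and 170. In the absorptive subclusters it was at 28.2 and 33.1 (Krt36), 41.6 and 47.4 (Muc3) and 32.4 and 55.6 (Saa1). The Mdga2 subcluster, with the highest Ppargc1a, had a nuclear respiratory chain share of 1.85% and 1.83%, and its nuclear members had a KO over WT median of 0.00. Ppargc1a was not kept out of the clustering genes, and its relation to the respiratory chain genes was not tested.

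In neutrophils the listed genes beyond 1.5-fold included Supv3l1, a mitochondrial RNA helicase, at 24.6 CPM in WT and 61.1 in KO. It is among the leading genes of the neutrophil cluster led by Eldr, which held 155 WT and 406 KO cells. Another was Mrps28, a mitochondrial ribosomal protein, at 38.9 and 79.5. Suclg1, a subunit of succinyl-CoA ligase, was at 19.6 and 32.7 CPM and Polg2, the accessory subunit of the mitochondrial DNA polymerase, at 16.8 and 26.1. These higher genes are named where 18.3% of all genes were higher in KO neutrophils by the same amount. Listed genes lower by that amount, beside 5.90% of all genes, included Ppargc1a (values above, with free RNA not subtracted). Also lower were Mrpl1 (9.64 and 6.31 CPM, on 65 and 45 UMIs) and Mterf4 (5.49 and 3.36 CPM, on 37 and 24 UMIs).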

How the data were processed

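The authors deposited raw UMI counts per gene and barcode for every barcode of 2 libraries, written by Cell Ranger 4 per the file headers. Cell Ranger, Seurat and the mm10 build are named in the submitters' processing notes, with no annotation release stated. The matrices held 164574326 UMIs in WT and 156641780 in KO.

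Cells were called against the free RNA profile of barcodes under 100 UMIs (barcodes from 500 UMIs tested, 10000 draws, false discovery rate 0.001). Called barcodes numbered 12305 in WT and 13180 in KO. Cells needed 200 genes and at most 25% mitochondrial UMIs (1463 and 1524 removed), and 940 and 1087 doublets were removed at 0.8% per 1000 cells. Clustering used 2000 variable genes without the respiratory chain genes, 30 components, 15 neighbours and Leiden resolution 1 (0.6 within epithelium), with scanpy 1.11.5, leidenalg 0.10.2 and scikit-learn 1.9.0 in Python 3.11.15. A cluster was named when at least 3 listed markers were in 25% of its cells and at least 2-fold above the lower quartile of cluster means. It stayed unnamed when another list had more markers among its 10 leading genes, or when it had few UMIs and none of its own list among them. A leading marker was required of clusters under 100 cells, a rule added after seeing the data. The names are rebuilt and may differ from the study's.

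Counts were summed per class and library, with exact 95% Poisson intervals for levels and shares and conditional binomial intervals for ratios (scipy 1.17.1). A group's ratio is the median log2 over members with at least 20 UMIs in the class, and 1.5-fold is the only call. The code was tested on simulated data. Named genes were all mitochondrially encoded members, complex II, the 2 most abundant members per complex, those farthest from 0 by interval bound (5 each way in epithelium and neutrophils, 2 in other classes, among members with 50 UMIs), isoform families, and those with the widest class range or state difference. AA467197, Cox5a and Atp5l were named after their values were seen, as were genes listed where few passed 1.5-fold. The members and lists were chosen with earlier results of these data known.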

Additional observations from a re-analysis of the deposited data

Results flagged for a closer look

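The KO over WT ratio of the summed nuclear-encoded UMIs did not have the same sign in every class. On the log2 scale it was 0.0696 in epithelial cells, 0.138 in neutrophils and 0.0878 in monocytes or macrophages, and -0.0595 in T cells and -0.0626 in B cells. Among epithelial states the same ratio was 0.0839 in absorptive cells and 0.214 in goblet cells, and -0.0252 in stem- or progenitor-like cells. The mitochondrially encoded sum gave another order, with 0.17 in stem- or progenitor-like cells, 0.0778 in absorptive cells and -0.125 in goblet cells. With 1 library per genotype, the difference was not tested in any of these cases. The free RNA of barcodes without cells, not itself a class compared here though it contributes UMIs to every class, had a mitochondrially encoded ratio of 0.20.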

How the results depend on the processing

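Values below are median log2 ratios, for mitochondrially encoded genes unless the nuclear group is named, and the cause of each shift was not tested. Over the other settings, 127 results stayed within the counting error of the members, 48 moved beyond it and 3 changed sign where the reported value lay beyond counting error. Those 3 were in T cells (-0.0697) and macrophages (-0.0522) after subtracting free RNA, and in macrophages without doublet removal (-4.21e-06). Within counting error, the nuclear median in B cells (-0.0626) also took the other sign, at 0.0645 without doublet removal, 0.00181 as a mean over cells and 0.0425 without cells holding a Siglech UMI, and was 0 when thinned. The same subtraction gave KO over WT of 0.11 in epithelium and 0.25 in neutrophils, and absorptive over stem of 0.62 in WT and 0.53 in KO (nuclear 0.47 in KO).

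KO over WT in epithelium was 0.11 with cells thinned to 1500 UMIs, 0.14 with every barcode from 1000 UMIs, 0.0676 as a mean over cells, 0.20 with median-of-ratios scaling, 0.12 with a 10% mitochondrial limit, 0.17 without doublet removal, 0.27 without a mitochondrial limit and 0.17 with totals free of mitochondrial and ribosomal genes. For the nuclear group it was 0.11 with median-of-ratios scaling, 0.11 without doublet removal and 0.14 without the limit. Neutrophils were at 0.72 with Leiden resolution 0.5 (556 WT and 544 KO cells named), 0.19 with median-of-ratios scaling and 0.40 without the limit. Macrophages were at 0.21 when thinned, 0.20 as a mean over cells and 0.0591 with the 10% limit. T cells were at 0.20 when thinned, and B cells at 0.05 with the 10% limit.

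Absorptive over stem in WT and KO was 0.61 in WT when thinned, 0.50 and 0.36 with every barcode (nuclear 0.14 in WT), 0.80 and 0.55 as a mean over cells (nuclear 0.15 and 0.39), 0.35 and 0.18 with the 10% limit (nuclear 0.21 and 0.37), 0.48 and 0.34 without doublet removal (nuclear 0.40 in WT), and 0.83 and 0.64 without the limit (nuclear 0.30 in KO). With subclustering at 0.3 it was 0.37 in KO (nuclear 0.17 in WT), at 1 it was 0.49 in KO (nuclear 0.38), and with totals free of mitochondrial and ribosomal genes 0.48 in KO (nuclear 0.49). Every one of these alternatives kept both groups above 0 in both libraries.

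Alternatives added after seeing the data gave 0.14 in epithelium without subclusters held mostly by 1 library. Without the Peak1 and Saa1 subclusters, whose median cell was over 10% mitochondrial, they gave 0.17 in epithelium and 0.43 and 0.33 for absorptive over stem (nuclear 0.38 in WT). No paired analysis was possible because each genotype has 1 library. Depth limits B cells most, where many members have under 100 UMIs in WT.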
